A study of Drosophila melanogaster with 2 samples.

Results

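Of the 3203 peaks of the Slp2 transcription factor that passed the authors' reproducibility threshold, 876 (27.3%, 95% Wilson interval 25.8 to 28.9%) lay in introns at a short distance from a gene's start. A peak was counted here when its summit lay more than 500 bp and at most 10000 bp from the nearest transcription start site (TSS) of a protein-coding transcript, inside the body of a protein-coding gene and in no annotated exon. The choice used the position of the summit and the gene annotation alone, and no peak height. Summits within 500 bp of a TSS numbered 1631, and those between genes at the same distances as the intronic ones numbered 332.

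The peaks come from chromatin immunoprecipitation and sequencing of whole Drosophila melanogaster embryos, collected from 0 to 24 h of age with both sexes together. The embryos were of 1 transgenic line, strain 9T-GFP, which stably carries Slp2 with GFP fused to its C terminus, and the labels describe an insertion targeting slp2. The chromatin was pulled down with an antibody against GFP, although 1 label field names slp2 as the antibody. The series holds 1 group of 2 samples, biological replicates 2 and 3, with no second genotype or treatment. The control data set was not analysed here, and the sources used here do not say at what level the fusion was made or whether untagged Slp2 was present. Because whole embryos of many stages were pooled, strong binding in few cells and weak binding in many cannot be told apart.

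Slp2 (Sloppy paired 2) is a forkhead-domain transcription factor that works with its neighbour Slp1 in segmentation, mesoderm patterning and the timing of neural stem cells. Forkhead proteins typically bind DNA through a core with the letters TGTTTAC or a close variant. In flies, long introns near the 5′ end of a gene often carry enhancers, DNA elements to which such factors bind and which act on the host gene or on a neighbour.

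The DNA under 6 of the 7 strongest of these peaks is shown first (that of HmgZ, the sixth by signal, is not printed), because the words it holds are compared below with those of all 876. Each line is a summit with 100 bp on either side, read 5′ to 3′ on the plus strand of dm6, and capitals mark forkhead matches (TGTTTAC or TGTTTGC on either strand). The windows were at chr2L:480981-481181 (ush), chr2L:6612624-6612824 (CG11050), chr3R:11760939-11761139 (Lk6), chrX:4910282-4910482 (CG32772), chr2L:3302095-3302295 (CG9663) and chrX:3742125-3742325 (Tlk).
ush: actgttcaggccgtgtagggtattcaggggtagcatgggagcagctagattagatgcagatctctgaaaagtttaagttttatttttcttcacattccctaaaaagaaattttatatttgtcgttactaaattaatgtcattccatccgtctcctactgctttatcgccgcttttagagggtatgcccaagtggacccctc
CG11050: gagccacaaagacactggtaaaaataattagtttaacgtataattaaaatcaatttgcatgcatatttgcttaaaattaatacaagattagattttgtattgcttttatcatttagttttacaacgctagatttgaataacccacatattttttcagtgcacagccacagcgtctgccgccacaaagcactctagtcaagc
Lk6: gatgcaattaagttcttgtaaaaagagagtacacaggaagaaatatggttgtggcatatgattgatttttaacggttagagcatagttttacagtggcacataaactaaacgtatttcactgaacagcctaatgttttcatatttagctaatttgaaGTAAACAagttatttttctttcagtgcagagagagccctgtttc
CG32772: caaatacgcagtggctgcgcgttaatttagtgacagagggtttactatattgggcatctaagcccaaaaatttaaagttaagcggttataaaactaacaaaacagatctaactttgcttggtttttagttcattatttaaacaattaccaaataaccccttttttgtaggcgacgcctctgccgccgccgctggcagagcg
CG9663: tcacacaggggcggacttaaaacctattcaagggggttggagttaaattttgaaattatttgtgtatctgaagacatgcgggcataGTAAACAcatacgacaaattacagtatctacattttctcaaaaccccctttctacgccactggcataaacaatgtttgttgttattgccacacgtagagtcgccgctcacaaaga
Tlk: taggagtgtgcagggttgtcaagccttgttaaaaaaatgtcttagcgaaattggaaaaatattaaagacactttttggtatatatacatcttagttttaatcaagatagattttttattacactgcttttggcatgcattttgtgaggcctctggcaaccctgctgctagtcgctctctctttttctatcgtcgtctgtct

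Of these 6 windows, those in Lk6 and CG9663 held 1 forkhead match each and the other 4 held none. The next windows are the 3 that held 3 forkhead matches each, again with matches in capitals. They were at chr2L:9525786-9525986 (Oatp30B), chr3R:16331821-16332021 (Sulf1) and chrX:11390967-11391167 (dlg1), all on the plus strand of dm6.
Oatp30B: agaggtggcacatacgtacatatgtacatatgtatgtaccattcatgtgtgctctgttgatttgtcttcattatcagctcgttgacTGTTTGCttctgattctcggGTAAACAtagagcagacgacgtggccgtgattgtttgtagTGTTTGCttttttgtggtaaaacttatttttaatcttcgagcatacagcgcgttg
Sulf1: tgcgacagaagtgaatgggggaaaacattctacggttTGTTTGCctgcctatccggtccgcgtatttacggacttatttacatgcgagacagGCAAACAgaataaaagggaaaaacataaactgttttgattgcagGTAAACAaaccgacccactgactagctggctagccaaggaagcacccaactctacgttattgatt
dlg1: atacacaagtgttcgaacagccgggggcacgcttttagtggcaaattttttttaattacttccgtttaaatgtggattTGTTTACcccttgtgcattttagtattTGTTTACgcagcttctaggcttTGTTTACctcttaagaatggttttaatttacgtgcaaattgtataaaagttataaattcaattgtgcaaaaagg

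The third set shows a different word, CAGTGTA, which reads TACACTG on the opposite strand. It was the word with the smallest p at the summits and is marked by capitals. They are among the strongest peaks with that word, as is the one in Tlk above, where it stands close to the summit. They were at chr3L:8458224-8458424 (Gug), chr3L:16480468-16480668 (aos) and chr2L:19165034-19165234 (brat) on the plus strand of dm6.
Gug: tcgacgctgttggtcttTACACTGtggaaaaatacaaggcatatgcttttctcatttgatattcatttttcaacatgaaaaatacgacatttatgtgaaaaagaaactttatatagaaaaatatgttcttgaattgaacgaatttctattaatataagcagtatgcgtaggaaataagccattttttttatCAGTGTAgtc
aos: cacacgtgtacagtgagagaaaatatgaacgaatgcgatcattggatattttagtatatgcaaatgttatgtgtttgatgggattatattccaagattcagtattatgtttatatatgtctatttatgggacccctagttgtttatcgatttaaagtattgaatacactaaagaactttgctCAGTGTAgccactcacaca
brat: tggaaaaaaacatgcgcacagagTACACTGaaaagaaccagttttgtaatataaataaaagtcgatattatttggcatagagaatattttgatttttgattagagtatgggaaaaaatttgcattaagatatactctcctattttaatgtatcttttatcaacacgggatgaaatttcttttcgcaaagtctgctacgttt

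The intronic peaks were somewhat denser in the sequence open to them than all 3203 peaks over the 6 chromosome arms, which came to 23.9 per Mb (23.1 to 24.8). Sequence that met the rule amounted to 31.0 Mb, or 23.2% of the 6 chromosome arms, and held 28.2 peaks per Mb (exact Poisson 95% interval 26.4 to 30.2). Intergenic sequence at the same distances held 17.4 per Mb (15.5 to 19.3), and sequence within 500 bp of a TSS held 106 per Mb (101.3 to 111.7). Introns beyond 10000 bp held 8.05 per Mb (6.78 to 9.498), and exons outside promoters held 2.92 per Mb (2.39 to 3.54). These intervals cover counting error over peaks only.

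The peaks crowded towards the TSS. From 501 to 1000 bp there were 219 peaks at 57.0 per Mb (49.7 to 65.1). The density was 34.0 per Mb (29.5 to 39.0) from 1001 to 2000 bp, 26.0 from 2001 to 3000 bp, 23.2 from 3001 to 5000 bp and 20.02 from 5001 to 7500 bp. It was 14.96 per Mb (11.4 to 19.2) from 7501 to 10000 bp. The median distance was 2053 bp. Intergenic peaks went from 30.9 per Mb (23.8 to 39.6) in the nearest of these ranges to 14.8 per Mb (10.6 to 20.1) in the farthest, so intronic and intergenic densities differed most close to the TSS and overlapped at the far end. The median signal did not follow distance in the same way: it was 100.9 in the nearest range and 96.2 in the farthest. Of 4 equal groups by signal, the strongest lay nearest, at a median of 1743 bp. The next groups lay at 2509, 2244 and 2020 bp.

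First introns held most of the peaks. Of the 876 summits, 678 (77.4%, 74.5 to 80.0%) lay in the first intron of some protein-coding transcript, against 54.5% of the eligible sequence. First introns carried 40.1 peaks per Mb (37.2 to 43.3) and the other introns 14.02 per Mb (12.1 to 16.1). From 501 to 1000 bp the values were 69.3 per Mb (59.8 to 79.9) in first introns and 26.4 per Mb (17.7 to 37.97) in others. The first-intron value was the higher in all 6 distance ranges, and the intervals overlapped in the farthest, with 19.8 per Mb (13.7 to 27.7) and 11.4 per Mb (7.54 to 16.6). With only the longest transcript of each gene, 58.9% of the peaks lay in a first intron, at 41.9 per Mb (38.3 to 45.6) against 19.3 per Mb (17.3 to 21.4) elsewhere.

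**Figure D1:**
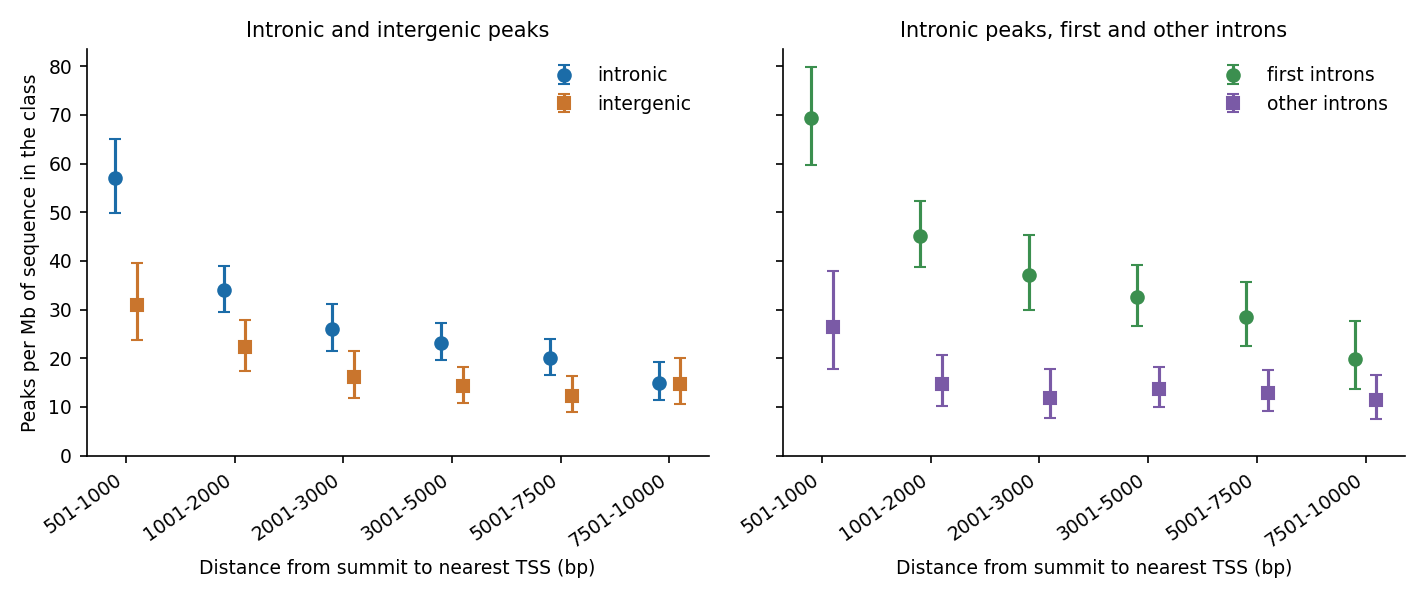
Peaks per Mb of sequence by distance to the nearest TSS, with exact Poisson 95% intervals, for intronic and intergenic peaks (left) and for intronic peaks in first and other introns (right). The intronic density goes from 57.0 per Mb at 501 to 1000 bp to 14.96 per Mb at 7501 to 10000 bp, and first introns stand above other introns in all 6 ranges.

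The nearest TSS belonged to the gene that holds the peak for 754 of 876 (86.1%, 83.6 to 88.2%), against 71.5% of the eligible sequence. Of these, 545 lay downstream of that TSS and 209 upstream of it, in a longer transcript of the same gene. The upstream ones were 23.9% (21.2 to 26.8%) of all the peaks and 15.03% of the eligible sequence. For the other 122 the nearest TSS was that of another gene, and the strongest of all intronic peaks was one of them. That nearest TSS itself had a reproducible summit within 500 bp for 162 of the 876 (18.5%, 16.1 to 21.2%). The same held for 10.5% (7.68 to 14.3%) of intergenic peaks, a difference of 7.95 points (Newcombe 95% interval 3.47 to 11.9), and for 13.7% of all protein-coding TSSs.

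The introns concerned had a median length of 8203 bp (quartiles 3829 and 16264 bp), taking the shortest intron that contains each summit, and the median distance from summit to the nearest exon edge was 1563 bp. Host genes had a median length of 23864 bp, and the rule by itself keeps the shortest genes out. Another reproducible summit lay within 2000 bp for 285 of the 876 (32.5%), against 22.9% of promoter peaks, a difference of 9.60 points (5.92 to 13.3). Against the 27.4% of intergenic peaks the difference was 5.12 points, with an interval that includes 0 (-0.748 to 10.6). Only 17 intronic summits were within 500 bp of the start of an annotated non-coding gene, 16 of them ncRNA genes and 1 a snoRNA gene.

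By arm, the density was 34.7 per Mb on X (220 peaks, 30.2 to 39.6) and 24.1 on 2L (136 peaks, 20.2 to 28.5), intervals that do not overlap. It was 28.4 on 2R, 27.8 on 3L and 27.3 on 3R, each with an interval that overlaps that of both. The intervals take peaks as independent, yet some genes held many: CG1677 12 and Raf 8 on X, and ush 8 on 2L. The difference between arms was not tested. Chromosome 4 had 14 reproducible peaks and 0 that met the rule, in 0.316 Mb of eligible sequence, for which the exact Poisson upper limit is 11.7 per Mb.

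The signal value of a peak is the score of the authors' caller, without a stated scale. Intronic peaks had a median of 103 in the list called on both replicates (quartiles 79.1 and 144) and promoter peaks a median of 104.1. Among the 300 strongest peaks were 68 intronic ones (7.76% of the intronic peaks) and 181 promoter ones (11.1% of the promoter peaks), where 9.37% of all 3203 were. Down the ranked list called on both replicates, the share that met the rule was 22.0% among the first 100 peaks, 29.0% between ranks 300 and 1000 and 26.1% below rank 20000. The share of promoter peaks over the same ranks was 63.0%, 51.4% and 17.4%. In all, 7846 of the 28637 peaks in that list met the rule, and the 876 are the strongest of them.

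In the replicates, the median signal of the intronic peaks was 57.6 in replicate 2 and 48.2 in replicate 3. A peak is called held below when it overlapped, by at least 1 bp, one of the 3203 strongest peaks of both replicates. Of the 876, 636 were held (72.6%, 69.6 to 75.5%), where 71.0% of all 3203 reproducible peaks were. Promoter peaks were held in 71.4%, a difference of 1.24 points (-2.49 to 4.86), and intergenic ones in 69.3%, a difference of 3.33 points (-2.29 to 9.22). Of the rest, 123 were in the strongest set of replicate 2 alone, 99 in that of replicate 3 alone and 18 in neither. Since the pooled signal comes from the same replicates, being held follows strength by construction. Split by pooled signal into 4 equal groups of 219, the strongest group was held in 99.5%, the second in 96.3%, the third in 72.1% and the weakest in 22.4% (17.4 to 28.3%). After each replicate was divided by its median over all reproducible peaks, the log2 ratio of replicate 2 to replicate 3 had an SD of 0.57 over the 863 intronic peaks listed in both. The 3 missing from the full list of replicate 2 and the 10 missing from that of replicate 3 had no ratio.

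**Figure D2:**
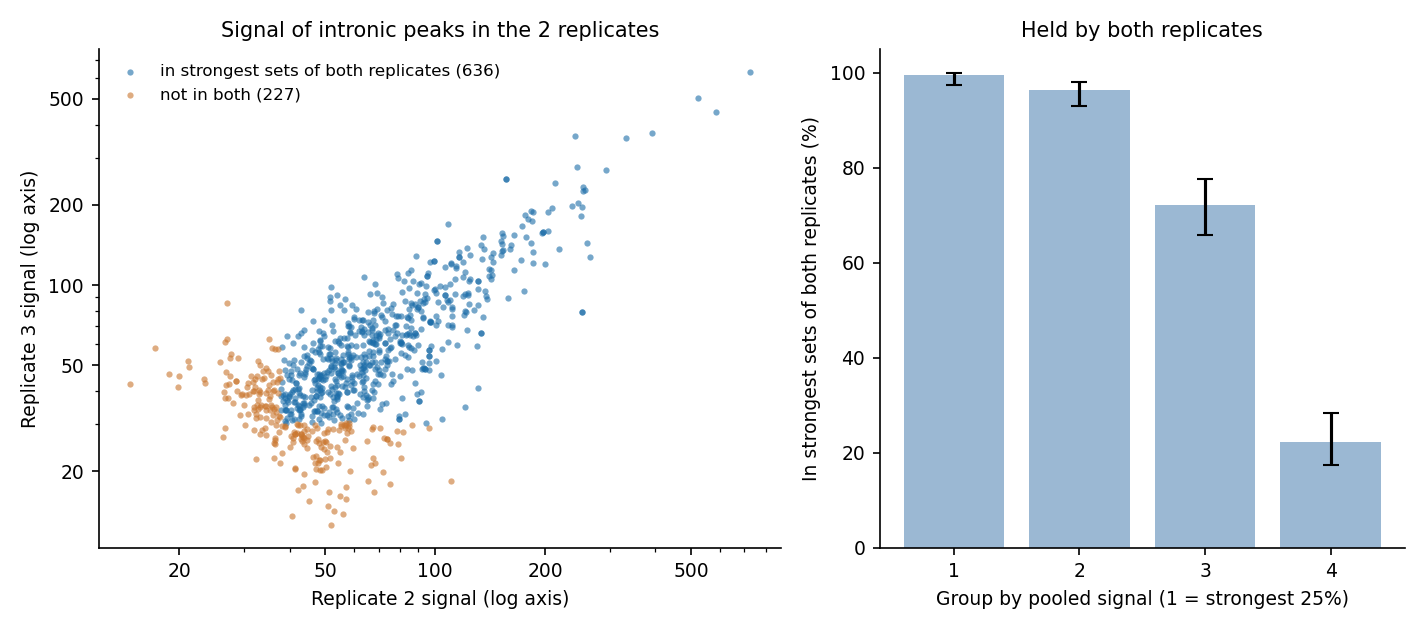
Left, signal of each intronic peak in replicate 2 and in replicate 3 on log axes, coloured by whether it overlaps the 3203 strongest peaks of both. Right, percent held by both in each of 4 equal groups by pooled signal, with Wilson 95% intervals: the strongest group stands at 99.5% and the weakest at 22.4%.

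Single peaks could differ widely between the embryo collections. A peak in for (foraging, a cGMP-dependent kinase) had a signal of 111 in replicate 2 and 18.5 in replicate 3, a log2 ratio of 2.41. A peak in ush, well away from its strongest one, had 17.2 in replicate 2 and 58.3 in replicate 3, a log2 ratio of -1.94. These are the extremes in each direction, picked for their values, and neither peak was held by both.

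The strongest intronic peak lay in the first intron of ush (u-shaped), which encodes a zinc finger cofactor of GATA factors. It ranked 2 among all 3203 peaks with a signal of 1346, and stood at 726 in replicate 2 (rank 1) and 632 in replicate 3 (rank 3). The nearest TSS, 1393 bp away, is that of cbt (cabut), a zinc finger factor gene that starts inside the ush intron. A peak in CG11050 followed, with 585 in replicate 2 and 447 in replicate 3. Its summit lay in a 140 bp intron, so the printed window reaches into both exons. The peak in the first intron of Lk6, a kinase of the MNK family that acts on translation initiation, had 522 and 502.8. CG32772 had 392 and 374, and CG9663 had 333 and 358. All of these were among the strongest 26 peaks of both replicates.

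The next peaks were in genes of nuclear and signalling proteins as well as in genes of unknown role. HmgZ, which encodes a high mobility group chromatin protein, had 241 in replicate 2 and 362 in replicate 3. Tlk (Tousled-like kinase, which acts on histone chaperones) had 292 and 272. The peak in mub, which encodes a KH-domain RNA-binding protein, had 243 and 279. Trl, the gene of the GAGA factor, had 253 and 233. NFAT had 253 and 225, and Raf, the kinase between Ras and MEK, had 256 and 228. The rest of the strongest 15 were in LPCAT, CG31635, CG3726 and chif (chiffon, a regulator of replication and chorion gene amplification), with signals of 459 to 431 in the pooled list. In each of the 15 both replicates placed the peak in their strongest set. In 12 of the 15 the summit was in a first intron, and in 14 the nearest TSS was that of the host gene, with ush the exception.

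A protein-coding gene body held at least 1 of the peaks for 614 of 13945 genes (4.40%), and 187 genes held 2 or more. Longer genes have more room: the genes with a peak had a median of 9.76 kb of eligible sequence, against 0.46 kb for the 9174 genes with any. The 14 genes with 5 or more held 89 of the 876. CG1677 held 12 in 90.6 kb of eligible sequence, and none of the 12 had its nearest TSS at CG1677 itself. The 8 of ush lay in 39.2 kb, 6 of them nearest to a TSS of ush. Raf held 8 in 23.3 kb, all in an intron numbered 2, and 7 had Raf as the nearest TSS. All 8 of shn (schnurri, a zinc finger factor of the Dpp pathway), in 42.8 kb, had shn as the nearest. By density CG14434, with 6 in 9.11 kb, and CHES-1-like, with 6 in 15.1 kb, exceeded these. CHES-1-like is itself a forkhead gene. tara, a trithorax-group gene, held 6, and Tlk, sick, Eip75B, apt, Pvf3, Ptp61F and px held 5 each.

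Gene lists by pathway are described next by the number of genes with a peak and by peaks per Mb of eligible sequence, where all protein-coding genes stand at 28.2 (26.4 to 30.2). The lists differ in gene length, were drawn up with earlier results of these data known, and give no test. A gene is named when its body held the peak. The nearest TSS was another gene's for the strongest peak of Ptp61F, fz, Wnt4, mam, ex, E23, insc, NetB, Mi-2 and cad. The same held for ush above and for dlp, wit and Dad below.

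Signalling genes of the Dpp and EGFR pathways held many. In the Dpp list 9 of 22 genes held 21 peaks at 102 per Mb (63.3 to 156), 8 of them in shn. When each peak was given to the gene of its nearest TSS, 7 of the 22 held one. Mad, the pathway's Smad, had 203 in replicate 2 and 188 in replicate 3. The glypican gene dlp had 110 and 101.3, the type II receptor gene wit had 85.6 and 114, and Dad, the inhibitory Smad, had 101.5 and 73.3. The nearest TSS was that of another gene for dlp, wit and Dad. In the EGFR and MAPK list 9 of 23 genes held 20 peaks at 92.9 per Mb (56.8 to 144), 8 of them in Raf. The peak in aos (argos, a secreted inhibitor of the receptor) had 196 and 157, that in S (Star, which helps ligand export) 109 and 170, and that in aop (the ETS repressor Yan) 114 and 116. Among JAK/STAT and insulin/TOR genes 4 of 23 held a peak, with Lk6, InR, Ptp61F and Socs36E. InR, the insulin receptor, had 175 and 95.2.

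Other signalling lists stood closer to all genes. In the segment polarity, Wnt and Hedgehog list 7 of 30 genes held 13 peaks at 54.0 per Mb (28.7 to 92.3). Its strongest were in the receptor genes fz (58.2 in replicate 2 and 53.6 in replicate 3) and ptc (51.9 and 53.2), in the ligand gene Wnt4 (58.8 and 52.3) and in the kinase gene sgg (48.7 and 44.5), all below the signals of the Dpp examples. In the Notch list 4 of 24 held a peak, at 40.7 per Mb (16.4 to 83.8). That list includes Notum, a Wnt pathway gene, which held 2 of the 7 peaks. There mam (Mastermind, the coactivator) had 152 and 157. The Hippo list had 3 of 17 (ex, kibra and crb), at 48.3 per Mb (13.2 to 124).

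Among regulators of transcription and chromatin, the forkhead list itself had the highest density: 9 peaks in 42.3 kb, or 213 per Mb (97.2 to 404), in 2 of 15 genes. Those were CHES-1-like with 6 (strongest 111 in replicate 2 and 81.6 in replicate 3) and jumu with 3 (strongest 94.1 and 48.3). In the list of GATA factors and their cofactor 3 of 6 genes held 10 peaks at 130 per Mb (62.5 to 240), 8 of them in ush, with 1 each in GATAd and grn. GATAd had 72.8 in replicate 2 and no overlapping peak in the list of replicate 3. In the Polycomb and trithorax list 9 of 34 genes held 18 peaks at 107 per Mb (63.2 to 168). Beside Trl these were led by trx (142 and 105.3), a histone methyltransferase gene, by Psc (121 and 79.3), a Polycomb complex member, and by tara (51.6 and 90.6). The corepressor list had 4 of 15 genes and 14 peaks at 74.2 per Mb (40.6 to 124), 8 of these again in ush. Smr, in that list, had 108 in replicate 3 and no overlapping peak in the list of replicate 2. Insulator and other chromatin factors had 2 of 26 (Mi-2 and Sin3A), at 59.3 per Mb (12.2 to 173), and 1 of 26 with the strongest peaks of replicate 3 alone or by nearest TSS.

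Hormone and tissue regulators varied. In the list of ecdysone and nuclear receptor genes 7 of 22 held 17 peaks at 43.9 per Mb (25.6 to 70.3), with a median signal of 151. The peak of the nuclear receptor gene Hr3 had 184 and 174, that of Hr4 185 and 133, that of E23, a transporter gene, 121 and 92.4, and that of Eip75B 111 and 82.7. Among tracheal and midline regulators 6 of 15 genes held 13 peaks at 92.4 per Mb (49.2 to 158), 8 of them the peaks of shn already counted in the Dpp list. There rib had 119 and 90.9, grh 68.7 and 62.8 and sim, the midline regulator, 64.8 and 38.6. Mesoderm and muscle regulators, a tissue in which Slp proteins act, had 9 of 34 and 30.4 per Mb (17.4 to 49.3). Their strongest were in kirre (a myoblast adhesion gene, 136 and 136), ths (an FGF ligand gene, 103 and 99.1), zfh1 (91.2 and 102) and mbc (107 and 91.5). Neuroblast and proneural genes, where Slp proteins also act, had 3 of 22 and 30.6 per Mb (9.93 to 71.3), in brat (199 and 120), grh and insc (49.7 and 27.7).

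Other lists were near or below all genes. Axon guidance and adhesion genes, many of them very long, had 12 of 37 but only 27.3 per Mb (16.4 to 42.7), led by Fas3 (97.4 and 72.6), Ten-a, sli and NetB. When each peak was given to the gene of its nearest TSS, 7 of the 37 held one. Ion channel and synapse genes had 3 of 27 (dnc, Ih and Shal) at 7.11 per Mb (1.47 to 20.8), below the interval of all genes. With the strongest peaks of replicate 2 alone, 1 of the 27 held one. Hox genes and cofactors had 2 of 11 (Antp and Abd-B), at 12.04 per Mb (1.46 to 43.5). The gap and maternal list had 1 of 14, cad, with 51.8 in replicate 2 and 12.6 in replicate 3, and 0 with the strongest peaks of replicate 3 alone or by nearest TSS. None of 9 pair-rule genes and none of 79 ribosomal protein genes held a peak. Their eligible sequence came to only 13.3 kb and 13.1 kb, for which the exact Poisson upper limits of 0 peaks are 278 and 281 per Mb.

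**Figure D3:**
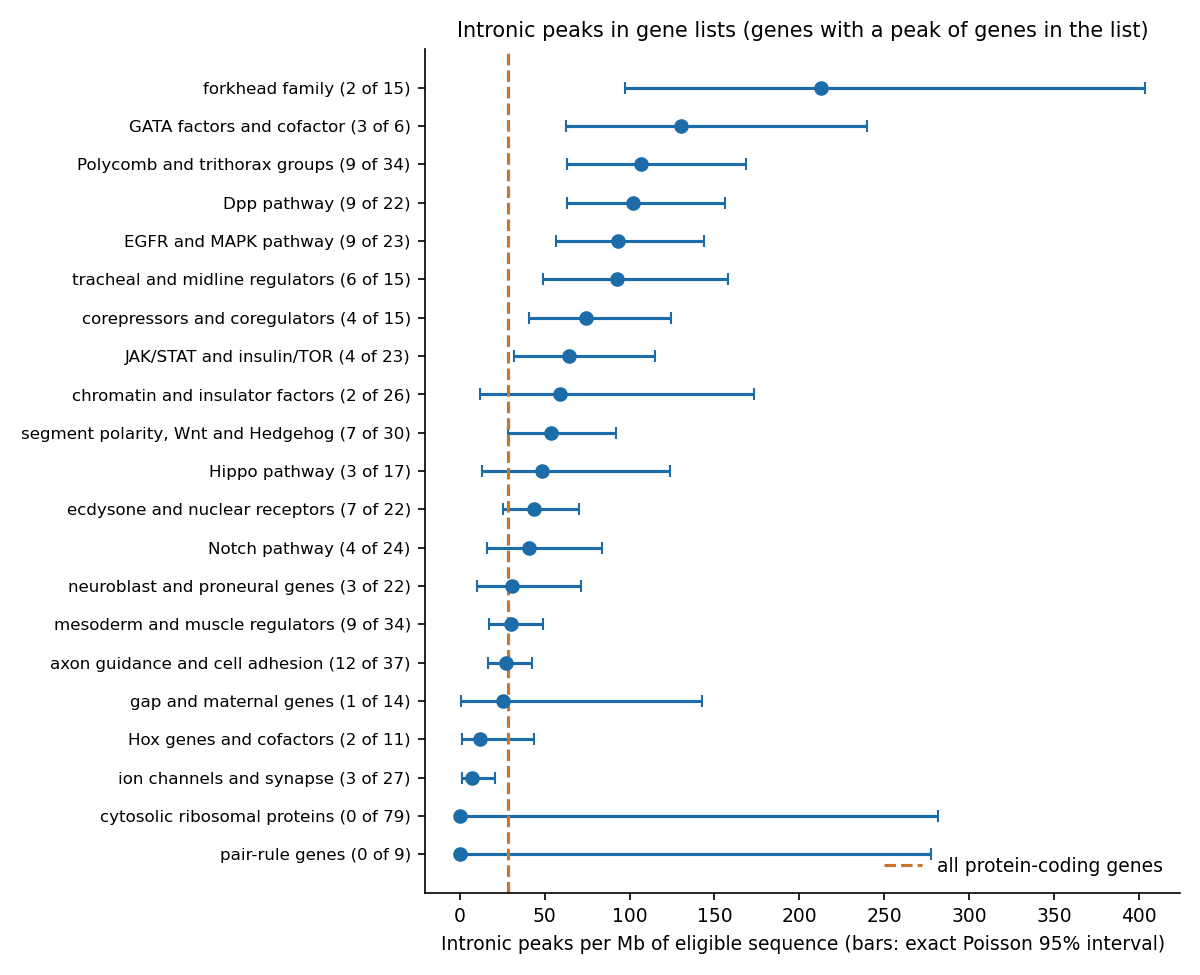
Intronic peaks per Mb of eligible sequence in each of 21 gene lists with exact Poisson 95% intervals, with the number of genes that hold a peak in brackets; the dashed line is the value over all protein-coding genes, 28.2. The forkhead list stands highest at 213 per Mb on 9 peaks, and the ion channel list at 7.11 is the lowest of those with any.

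Known binding words were compared between the window of each summit (100 bp on either side) and a flank window of the same length centred 600 bp away, on alternate sides in genome order. Of 15 motifs, 0 passed an adjusted p of 0.05 (0% of those tested, exact McNemar test over peaks, two-sided, Benjamini-Hochberg over the 15), and 3 had an unadjusted p under 0.05. The forkhead word (TGTTTAC or TGTTTGC) was in 122 summit windows (13.9%, 11.8 to 16.4%) and 95 flanks (10.8%), with an adjusted p of 0.209. In 130630 windows of the same length tiled over all eligible sequence its share was 12.3%, in promoter peaks 13.1% and in intergenic peaks 9.94%. The 3 with the lower unadjusted p were the forkhead letters rearranged (GTTCTAT or GTTCTGT, 4.68% at summits and 2.74% in flanks), the words of the GATA family, which read AGATAAG or AGATAAC (7.08% and 4.68%) and the Su(H) word GTGGGAA (2.51% and 4.34%). The forkhead word and its rearranged letters had the same adjusted p, 0.209.

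Words of core promoters were nearly absent. DREF (TATCGATA) was in 0.114% of intronic summit windows and in 7.73% of promoter ones, a difference of -7.61 points (-9.01 to -6.30). Motif 1 (GGTCACAC) was in 0.228% and 4.35%, a difference of -4.12 points (-5.24 to -3.05). In tiled eligible windows the shares were 0.338% and 0.292%. Intronic peaks thus seldom held these words, which some promoter peaks of the same list did.

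A search over all words was added after those results were seen. It compared summit and flank for each of the 8192 words of 7 letters, a word and its reverse complement counted as one, with the same exact McNemar test and with p-values adjusted over all 8192. It called 116 words (1.42%), 83 more frequent at summits and 33 less frequent. Lengths of 5 and 6 were searched too and called 278 of 512 and 431 of 2080. Of the 83, 46 had at least 6 letters A or T. A and T made up 63.6% (SD 5.76) of summit windows, 58.9% (SD 8.39) of flanks and 59.8% (SD 7.97) of tiled windows, and 79.3% of flank centres were in eligible sequence. The part of this composition in the AT-rich calls was not tested.

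The 10 words with the smallest p were of another kind. Read on 1 strand or the other, 9 of the 10 hold AGTG, 7 hold CAGTG, and the remaining one, ACTGTGC, reads GCACAGT on its opposite strand. CAGTGTA was in 97 of 876 summit windows (11.1%, 9.16 to 13.3%) and 16 flanks (1.83%), in 96 peaks at the summit alone and in 15 at the flank alone (adjusted p 1.01e-11). Tiled eligible windows held it in 1.83%, 6.05-fold less often. CACAGTG was in 102 windows (11.6%) and 20 flanks (2.28%), with an adjusted p of 2.34e-11 and 2.27% of tiled windows. ACAGTGG was in 124 (14.2%) and 33 (3.77%), and CAGTGCA in 102 (11.6%) and 27 (3.08%). The core CAGTG by itself was in 490 summit windows (55.9%, 52.6 to 59.2%), 293 flanks (33.4%) and 27.9% of tiled windows. The words overlap each other, so that 1 site can count for several. No factor is assigned to them here.

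The words were uneven in place and direction. CAGTGTA was scarce at the summit itself and most frequent 50 to 100 bp away on both sides: 4.11 matches per 100 peaks read away from the summit from 50 to 75 bp and 4.22 from 75 to 100 bp. From 0 to 25 bp there were 0.799, and beyond 150 bp the values were at most 0.571. With distance taken from the middle letter of the word, 96 matches within 100 bp of the summit read away from it and 14 towards it, where reading away means that the word runs 5′ to 3′ in the direction that leaves the summit. The direction did not follow the gene: 49 of the 107 matches that lie wholly inside the summit windows (45.8%) were on the strand of the host gene. Of these 107 CAGTGTA matches, 0 had their AG at the annotated end of an intron. Summits lay a median of 1563 bp from the nearest exon edge, so few matches could lie there. The other words were not counted in this way. In the printed CG11050 window the related word CAGTGCA has its AG at the annotated end of the 140 bp intron, on the strand of the host gene. CAGTGCA had 88 matches away and 25 towards, whereas CACAGTG had 40 away and 79 towards. The core CAGTG by itself had 377 away and 322 towards within 100 bp of the summit. On the strand of the match, the 7 letters ahead of CAGTGTA held T in 50.5% to 72.0% at 6 of 7 positions and C in 53.3% at the other, while the 7 letters after it showed no base above 36.4%. Where the word reads away, this T-rich stretch lies on its summit side, as in the windows printed for Gug, aos and brat. The word in Tlk reads towards the summit.

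**Figure D4:**
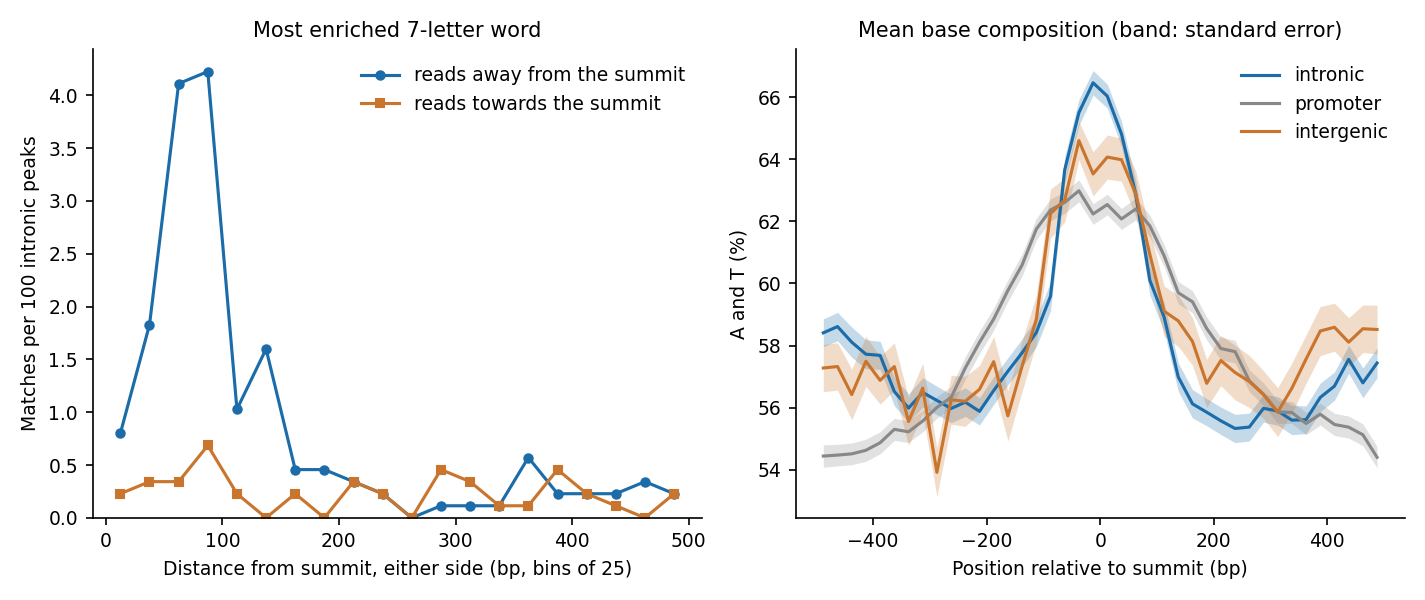
Left, matches per 100 intronic peaks to the 7-letter word with the smallest p, by distance from the summit on either side and by whether it reads away from or towards the summit: those reading away peak at 4.22 from 75 to 100 bp and those reading towards are at most 0.685. Right, mean share of A and T in 25 bp bins about the summit for intronic, promoter and intergenic peaks, with standard errors over peaks; the intronic mean is 66.5% just left of the summit.

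These words were chosen by their p in these peaks, so what follows describes them without a test. CAGTGTA was in 13.2% of the strongest of the 4 signal groups of intronic peaks, and in 14.2%, 11.4% and 5.48% of the next ones. It was in 4.60% of promoter peaks and 12.95% of intergenic ones, and there too the matches within 100 bp read mostly away from the summit (66 to 15 and 39 to 10). Peaks with and without it were alike in position, with 75.3% and 77.7% in a first intron and median distances of 2295 and 2044 bp. Of those with it 80.4% were held by both replicates, against 71.6% without. Their median signals were 113 and 100.3, and being held follows strength by construction. None of the 97 touched an annotated transposable element, and soft-masked repeat letters made up a mean of 18.4% of their windows and 18.6% of the others.

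At the lower limit of the rule, summits at 506 bp (signal 70.8) and 513 bp (80.6) were the nearest counted, and those at 499 bp (83.5) and 497 bp (104.6) the nearest intronic ones left out. At the upper limit summits at 10000 bp (122) and 9967 bp (303) were counted, and those at 10139 bp (108) and 10207 bp (78.2) were not.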

How the data were processed

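Chromatin immunoprecipitation and sequencing peaks of Slp2 fused to GFP were taken from 2 biological replicates of whole embryos, sonicated to 200 to 800 bp per the labels. The deposited lists in dm6 coordinates hold, per the file headers, relaxed peaks of each replicate (30000 each), relaxed peaks called on both replicates together (28637), and those past an irreproducible discovery rate threshold (3203). The peak signal deposited by the authors is a score of their caller with no stated scale, used here only to rank and describe peaks within a list. The aligner, caller, threshold and sequencing depth are not given in the sources used here, and the control data set was not analysed here, so no depth-based precision can be given. Intervals cover counting error over peaks. Tests run over peaks, so their p-values hold for these peaks and carry no estimate of how embryo collections vary.

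Protein-coding transcript starts, gene bodies and exons came from Ensembl release 115 (BDGP6.54), and sequence from the RefSeq Release 6 assembly, to which the printed windows are credited. Eligible sequence is every base of arms 2L, 2R, 3L, 3R, 4 and X that meets the same rule. Replicates were compared through the strongest 3203 peaks of each, with an overlap of at least 1 bp. Motifs and 7-letter words were tested with an exact McNemar test and Benjamini-Hochberg adjustment at 0.05. Only the word search was checked on simulated data. Summits and flanks there had the same base composition, unlike these peaks, so that check does not cover calls that follow composition. Python 3.11.15, NumPy 2.4.6, SciPy 1.17.1, pandas 2.3.3 and matplotlib 3.10.9 were used. The peaks, gene lists and motifs were chosen with earlier results of these data known. Named genes are the 15 strongest peaks, the genes with the most peaks, and up to 4 genes with the strongest peaks in each of 21 lists; the replicate extremes and the windows with CAGTGTA were chosen after their values were seen. Of the list symbols, 2 had no protein-coding match (bantam and lb). A further gene list and a further sequence window are not reported here.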

Additional observations from a re-analysis of the deposited data

How the results depend on the processing

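The number of intronic peaks lay between 657 and 1037 over the definitions tried. Their density was 31.4 per Mb with a promoter limit of 250 bp, 24.2 with 1000 bp and 34.0 with TSSs only at the 5′ end of each gene, and from 27.3 to 30.2 with 1 replicate left out. The share held by both replicates was 66.6% for summits within 100 bp, 48.9% with the strongest 2000 peaks of each replicate and 90.4% with the strongest 5000. First introns held 58.9% with the longest transcript alone, and the host gene had the nearest TSS for 72.7% with gene 5′ ends. The median signal relative to promoter peaks was 0.986, and 0.892 by the signal of replicate 3. The cause of these moves was not tested, beyond what each definition changes by construction.

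Of the 15 motifs, 1 was called with windows of 50 bp on either side (GAGA, 10.3% at summits and 16.3% in flanks), and 1, the CA repeat, in the stronger 50% of the peaks (14.8% and 25.6%), in those held by both replicates (16.0% and 23.9%) and without replicate 2 (16.4% and 27.2%), so the motif count ranged from 0 to 1 with 1 replicate left out. The forkhead difference ran from -1.60 to 4.49 points (adjusted p 0.0718 to 1), and was below 0 in the stronger 50%, as was that of the rearranged word (-0.685 points); Su(H) changed sign with flanks 1000 bp away (0.114 points). The word search, all of whose alternatives were chosen after seeing the data, called 30 words with 50 bp on either side, 69 with 150 bp, 40 in the stronger 50%, 57 among peaks held by both and 60 with flanks kept in eligible sequence, of which 54 were among the 116. That last count left out 62 peaks. With 1 replicate left out the search called 112 to 118 words, but of the 118 without replicate 3 only 48 were among the 116, and of the 112 without replicate 2 only 51. With flanks 1000 bp away it called 99, of which 47 were among the 116. CAGTGTA passed in 7 of 8 alternatives and missed with 50 bp on either side (2.40 points, adjusted p 0.0733, range 1.95e-13 to 0.0733). Over the 10 words with the smallest p, 72 of 80 alternatives passed: 6 of the 10 missed with 50 bp on either side, among them CAGTGCA (1.94 points, adjusted p 0.383), AGTGTAC also missed without replicate 3 (0.0946) and AGTGCAC in the stronger 50% (0.151). The 10 words were picked by their p in these same peaks, and the alternatives mostly reuse the same summits. Passing again is therefore not independent support. No paired analysis was possible because the 2 replicates form 1 group. Depth is unknown.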
